A study of Mus musculus with 13 samples.

Results

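In CUT&RUN libraries of mouse embryonic fibroblasts, 252 regions of chromosomes 1 to 19 had a peak in all 6 lists made with a control IgG. They were chosen by the presence of a peak in those 6 lists, after the 6 HA and 6 IgG lists had been merged wherever intervals shared at least 1 bp, and are called members here. The merge gave 70492 regions, of which 2779 had a peak in 1 to 5 IgG lists and 67461 in none. The members made up 0.357% of all regions and 8.31% of the 3031 regions with any IgG peak. Because IgG peaks chose them, their IgG values are given as a description with no test. No HA peak was required, but HA intervals entered the merge and can widen or join regions. The HA shares at members are therefore not fully independent of the choice. The H3K27me3 list was not used in it.

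CUT&RUN tethers a nuclease to chromatin through an antibody and sequences the fragments that are released. A control IgG has no chromatin target, so its library shows where fragments accumulate without one, such as accessible chromatin. Repeats that the assembly holds in fewer copies than the genome also gather reads, since reads from many copies align to the few that are present. Lists of such places exist for common assemblies and are often set aside before binding sites are counted. Whether the members lie in repeats, in genes or in any such list was not tested, because no sequence or annotation of the files' build (GRCm39) was used. For the same reason no sequence is shown, and the label of the cells could not be checked against markers.

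The cells came from mice with Pax7-CreERT2 (a tamoxifen-dependent Cre under Pax7 control), a Rosa26-LSL-tdTomato reporter and CAG-rtTA3, the doxycycline-dependent activator. All groups carried these alleles and a lentiviral, doxycycline-inducible mouse Myf6 with a 3xHA tag, and all spent 24 h in iMPC medium. Myf6 belongs to the bHLH factors that drive the skeletal muscle programme. The +Myf6+F/R/C cells received 2 µg/mL doxycycline, 5 µM Forskolin (an activator of adenylyl cyclase), 5 µM RepSox (an inhibitor of the type I TGF-β receptor) and 3 µM CHIR99021 (an inhibitor of GSK3). The +Myf6 cells received 2 µg/mL doxycycline alone, and the remaining cells received no doxycycline. Each treatment had 2 HA libraries and 2 IgG libraries, and within a replicate both antibodies were used on portions of the same nuclei. A single library of +Myf6+F/R/C cells was made against H3K27me3, the mark deposited by Polycomb repressive complex 2. The labels do not say whether replicates were separate cultures, so p-values measure the spread between these libraries, which may be technical.

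The HA libraries of +Myf6+F/R/C cells had a depth of 61.9 and 40.9 mean fragments per 10 kb (replicates 1 and 2). Those of +Myf6 cells had 42.4 and 30.6, and those without doxycycline 30.6 and 23.7. The IgG libraries were shallower, at 8.25 to 22.7, and the H3K27me3 library had 54.3. Depth therefore differed 7.51-fold over the 13 libraries, and it moves with both the antibody and the treatment. A summit pileup is the number of fragments stacked over a peak's summit, recovered from the deposited fold and p-value. Pileup per depth is that number divided by the library's mean fragments per 10 kb. A pileup also depends on the fragment length of its list, which ran from 104 to 172 bp, and this scale does not remove that.

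The members held the strongest peaks of the IgG lists. Their widths ran from 174 to 4508 bp with a median of 360.5 bp, against 186 bp for regions in 1 to 5 IgG lists and 330 bp for regions in none. Together they covered 131 kb. The median summit pileup at the members was 27 and 20 fragments in the IgG libraries of +Myf6+F/R/C cells. It was 21 and 24 in those of +Myf6 cells and 24 and 21 in those without doxycycline. The authors' fold over local background had medians of 14.6 and 11.3 in +Myf6+F/R/C, 12.2 and 12.4 in +Myf6, and 12.2 and 12.4 without doxycycline. Of the 100 IgG peaks with the smallest p-values in each list, 99 or 100 lay at members. Members held 29.0% and 15.4% of the regions in the +Myf6+F/R/C IgG lists, 66.7% and 24.8% in +Myf6 and 58.7% and 35.5% without doxycycline. The weakest of a member's 6 deposited −log10 q values had a median of 13.8, and 226 of the 252 members had at least 5 in every list.

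The members were ordered by the mean rank of their p-values over the 6 IgG lists, from 1, the best. The region with the best mean rank lay at chr6:103625906-103626345. Its HA summit pileups were 227 and 213 fragments in +Myf6+F/R/C, 225 and 220 in +Myf6 and 240 and 197 without doxycycline. Its IgG pileups were 189 and 214, 208 and 228, and 206 and 214 in the same treatments, and its H3K27me3 pileup was 206. The values with the 3 antibodies overlap, and the depth of the libraries differs 7.51-fold. Some lay within 10% of 2 times the fragment length of their lists, a limit on the pileup. These were the HA value of 197 and the IgG values of 189, 208 and 206, with the 214 of replicate 2 without doxycycline. Equal pileups at this member thus do not rank the antibodies. The second, chr12:3159758-3160236, had HA pileups of 256 and 253, 258 and 252, and 260 and 216 in the same order of treatments. Its IgG pileups were 208 and 252, 227 and 252, and 220 and 232, and its H3K27me3 pileup was 243. The antibodies overlap here too. The HA value of 216 and the IgG values of 208 and 220 equal 2 times the fragment length of their lists, a limit taken up with the tallest pileups, so at this member they do not rank the antibodies.

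The other 8 of the 10 best-ranked members spanned a wide range of pileups. At chr16:97908596-97908993, HA pileups were 107 and 98 in +Myf6+F/R/C, 100 and 90 in +Myf6 and 129 and 70 without doxycycline. IgG pileups there were 80 and 90, 95 and 123, and 95 and 84, and the H3K27me3 pileup was 74. Over the 3 treatments the HA and IgG values overlap, although both HA values of +Myf6+F/R/C lay above their IgG values. At chr16:93585988-93586302, HA pileups were 57 and 44, 54 and 56, and 57 and 44, and IgG pileups were 61 and 48, 59 and 56, and 62 and 60. The H3K27me3 pileup at this member was 32, under all of its HA and IgG values. The remaining 6 were chr9:35216417-35216998, chr12:97028107-97028686, chr9:24453211-24453588, chr2:98496571-98497739, chr2:98492526-98493345 and chr4:70296233-70296589. Their lowest and highest summit pileups over the 13 libraries were 28 and 341.

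**Figure D1:**
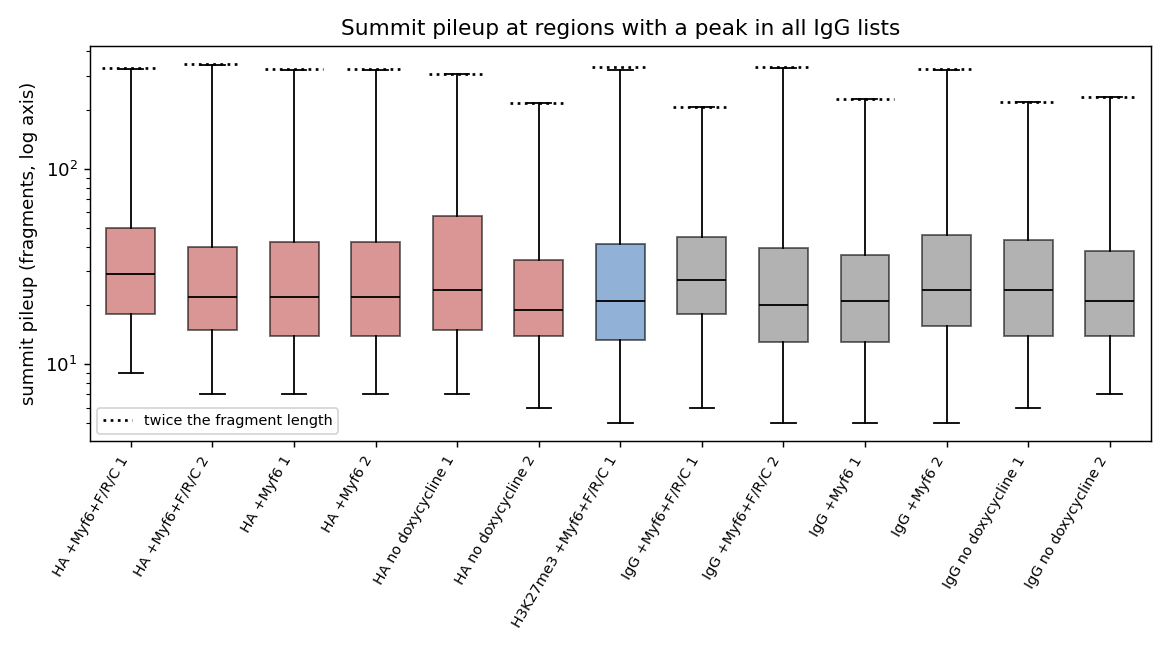
Summit pileup (fragments, log axis) at the members in each of the 13 libraries; boxes give quartiles, whiskers the lowest and highest member, and dotted marks lie at 2 times the fragment length of the list. The HA boxes, with medians of 19 to 29 fragments, and the IgG boxes, with medians of 20 to 27, lie at the same height.

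HA peaks were present at nearly all members, in uninduced as in induced cells. In +Myf6+F/R/C, 241 members (95.6%) and 234 members (92.9%) had an HA peak in replicates 1 and 2, against a background of 53% and 43.9% of all merged regions. In +Myf6, 230 members (91.3%) and 245 members (97.2%) had one, against 39% and 48.2% of all regions. Without doxycycline, 226 members (89.7%) and 242 members (96.0%) had one, against 2.97% and 5.78% of all regions. All 6 HA lists had a peak at 204 members (81.0%), where 1.25% of all regions did. The number of members with a peak thus stayed between 226 and 245, while the lists themselves held 2130 to 37811 autosomal peaks.

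The shares of members with an HA peak did not separate the treatments. The share was 94.2 ± 1.96% in +Myf6+F/R/C and 92.9 ± 4.49% without doxycycline (SD, n = 2 each), a difference of 1.39 percentage points (two-sided exact permutation p = 1). It was 94.2 ± 4.21% in +Myf6 and 92.9 ± 4.49% without doxycycline, again a difference of 1.39 points (exact permutation p = 0.667, n = 2 each). Between +Myf6+F/R/C and +Myf6 the difference was 0 points (exact permutation p = 1). Within replicates 1 and 2, +Myf6 minus no doxycycline was 1.59 and 1.19 points, and +Myf6+F/R/C minus no doxycycline was 5.95 and −3.17 points. No 2-against-2 test can give a p under 0.333, so none of the 6 tests run could pass 0.05, and each had a Benjamini-Hochberg adjusted p of 1.

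Members were among the strong peaks of each HA list. The median rank of a member's p-value was 1419 and 1002 in the +Myf6+F/R/C lists, 802.5 and 320 in the +Myf6 lists and 137 and 157.5 in the lists without doxycycline. Of the 100 HA peaks with the smallest p-values, 45 and 52 lay at members in +Myf6+F/R/C. The number was 57 and 69 in +Myf6 and 91 and 81 without doxycycline. As a share of all peaks of the list, members took 0.661% and 0.781% in +Myf6+F/R/C, 0.878% and 0.758% in +Myf6 and 11.2% and 6.50% without doxycycline. The authors' HA fold at members had medians of 9.63 and 9.37, 9.01 and 10.1, and 10.8 and 11.4 in the 3 treatments. Peaks elsewhere in the same lists had medians of 5.08 and 5.07, 5.24 and 5.17, and 5.94 and 5.57. These lists differ in length, so ranks and counts among the best 100 cannot be compared between treatments. As a share of its list, the median rank was 3.75% and 3.18% in +Myf6+F/R/C, 2.86% and 0.926% in +Myf6 and 6.43% and 3.81% without doxycycline.

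The summit pileup at members hardly varied with depth. The median HA pileup was 29 and 22 fragments in +Myf6+F/R/C, 22 and 22 in +Myf6 and 24 and 19 without doxycycline, and it was 21 in the H3K27me3 library. The highest of the 13 medians, IgG included, was 1.53 times the lowest. At the 204 members with all 6 HA peaks, median HA pileups were 31 and 24, 24 and 24.5, and 28 and 22 in the same treatments. At the 619 regions with all 6 HA peaks and no IgG peak, the medians were 36 and 26, 22 and 17, and 12 and 9. The highest of the 6 HA medians was thus 1.41 times the lowest at members and 4 times the lowest at the regions without IgG peaks, while HA depth differed 2.62-fold. Region by region, the highest HA pileup was a median of 1.91 times the lowest at members (quartiles 1.59 and 2.27). It was 4 times the lowest at the regions without IgG peaks (quartiles 3.29 and 4.91).

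**Figure D2:**
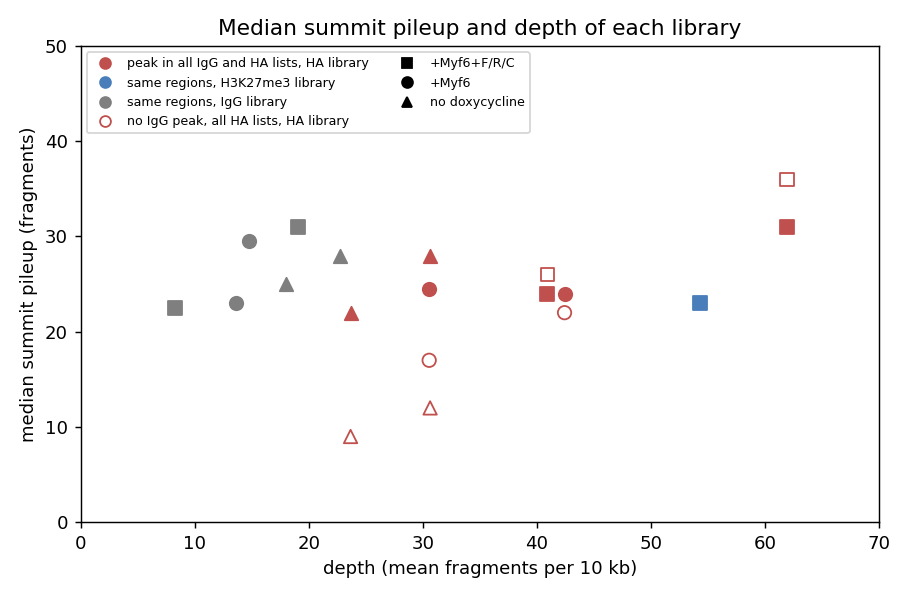
Median summit pileup (fragments) against library depth (mean fragments per 10 kb) for the 204 members with all 6 HA peaks (filled) and the 619 regions with all 6 HA peaks and no IgG peak (open). The HA medians of members run from 22 to 31 fragments, and those of the regions without IgG peaks from 9 to 36.

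The tallest pileups reached or came close to 2 times the fragment length in every list. In each of the 13 lists the highest summit pileup of any peak lay at the member chr2:98496571-98497739. Its HA pileups were 325 and 341 in +Myf6+F/R/C, 320 and 321 in +Myf6 and 304 and 216 without doxycycline. Its IgG pileups were 208 and 328, 228 and 321, and 220 and 234, and its H3K27me3 pileup was 320. The fragment length, read from the narrowest peak of a list, was 164 and 172, 161 and 161, and 152 and 108 bp in the HA lists. It was 104 and 166, 114 and 162, and 110 and 117 bp in the IgG lists, and 165 bp for H3K27me3. The highest pileup equalled 2 times the fragment length exactly in 6 lists, was 97.0% to 99.7% of it in the other 7, and passed it in none. A caller that keeps 1 read per position and strand cannot stack more fragments than that. Whether duplicates were removed is not given in the sources used here, and its part in the pileups was not tested. Members within 10% of the limit numbered 3 and 1, 3 and 3, and 16 and 8 in the HA lists, and 10 and 1, 8 and 3, and 19 and 6 in the IgG lists.

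HA and IgG libraries of the same nuclei held similar pileups at the members. In +Myf6+F/R/C the median ratio of HA over IgG pileup was 1.06 (241 members) and 0.987 (234 members), where HA depth was 3.25 and 4.96 times IgG depth. In +Myf6 it was 1.08 (230 members) and 0.870 (245 members), with depth ratios of 3.11 and 2.08. Without doxycycline it was 1.09 (226 members) and 0.919 (242 members), with depth ratios of 1.35 and 1.32. Within each of the 6 pairs, 89.3% to 96.0% of members lay within 2-fold of equality.

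Per depth, HA lay under IgG. The median ratio of HA over IgG pileup per depth was 0.325 and 0.199 in +Myf6+F/R/C, 0.345 and 0.419 in +Myf6 and 0.811 and 0.698 without doxycycline. Of the 218 members with a peak in all 4 induced HA lists, 210 had HA below IgG per depth in all 4 pairs and 1 had HA above IgG in all 4. IgG peaks chose the members, which favours high IgG values, so this is a description with no test. At the same time the raw pileups were near equal, as above, and depth and antibody cannot be told apart here.

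**Figure D3:**
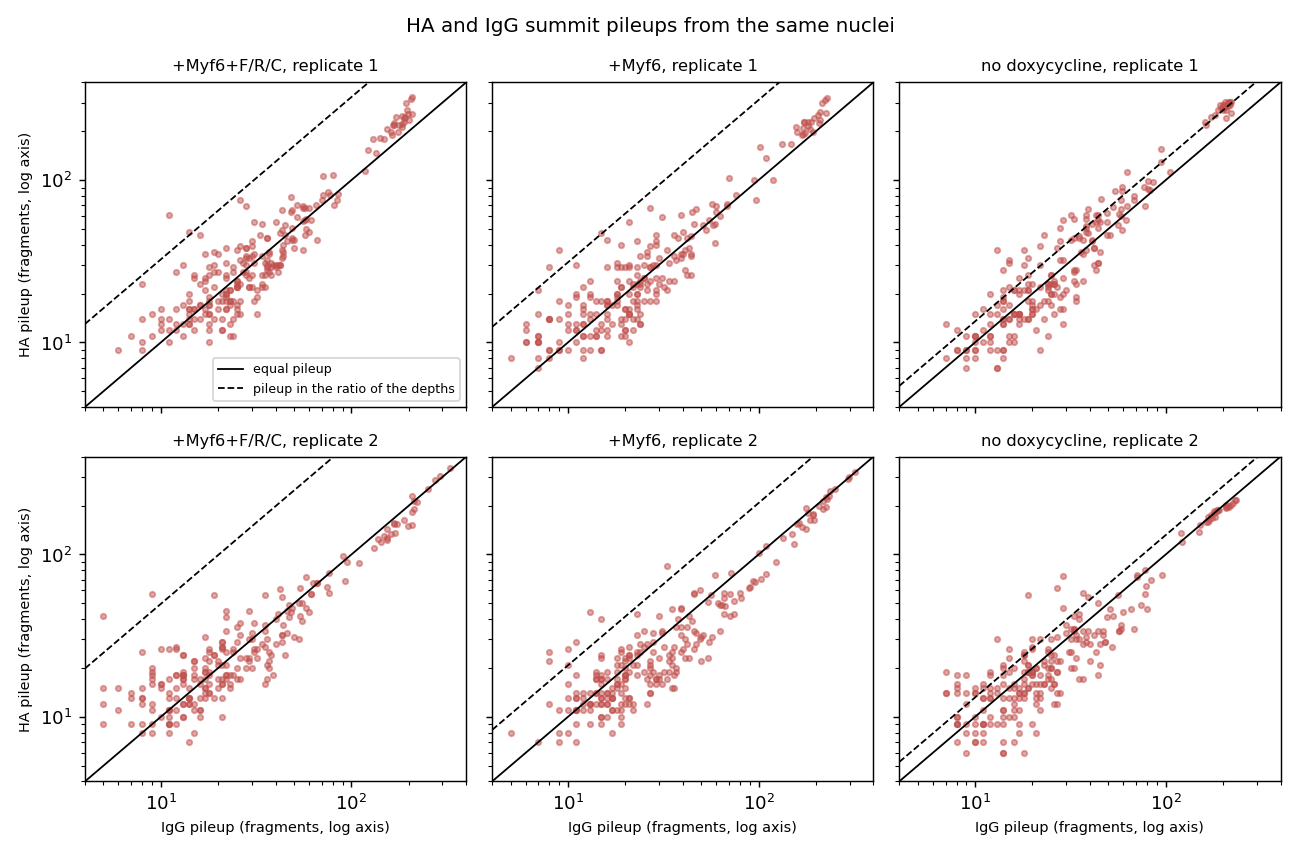
HA summit pileup against IgG summit pileup (fragments, log axes) of the same nuclei, 1 panel per treatment and replicate, 1 point per member with both peaks. The solid line marks equal pileups and the dashed line the ratio of the 2 depths; median ratios of 0.870 to 1.09 put the points around the solid line.

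Per depth, the HA pileup at members was lower in induced than in uninduced cells. On the log2 scale it averaged −0.62 ± 0.16 in +Myf6+F/R/C and 0.19 ± 0.017 without doxycycline (SD over libraries, n = 2 each, 207 members). The difference of −0.81 is a ratio of 0.570 (exact permutation p = 0.333, the smallest possible), and it was −0.91 and −0.71 within replicates 1 and 2. It averaged −0.29 ± 0.34 in +Myf6 and 0.16 ± 0.018 without doxycycline (n = 2 each, 215 members). That difference was −0.46, a ratio of 0.728 (exact permutation p = 0.333), with −0.69 and −0.23 within replicates. Between +Myf6+F/R/C, at −0.66 ± 0.16, and +Myf6, at −0.31 ± 0.33, the difference was −0.34 over 218 members, a ratio of 0.788 (exact permutation p = 0.667, n = 2 each). The ordering of the groups follows library depth, which was highest in +Myf6+F/R/C and lowest without doxycycline. Among single libraries, replicate 2 of +Myf6 and replicate 1 without doxycycline both had a depth of 30.6. Their median pileups per depth were 0.720 (245 members) and 0.783 (226 members), over sets of members that differ. That is 1 library on each side, and over the groups treatment and depth cannot be told apart.

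Where induced and uninduced libraries did not overlap at a member, the induced values were nearly always the lower ones. Between the 2 induced treatments, the lower values were mostly those of +Myf6+F/R/C. In +Myf6+F/R/C against no doxycycline, pileup per depth was lower without overlap at 166 of 207 members (background 23.7% of regions) and higher at 0 (background 48.3%). In +Myf6 against no doxycycline, it was lower without overlap at 98 of 215 members (background 17.5%) and higher at 1 (background 41.2%). In +Myf6+F/R/C against +Myf6, it was lower at 81 of 218 members (background 22.2%) and higher at 4 (background 13.8%). With all 4 induced libraries against both uninduced ones, it was lower at 93 of 204 members (background 13.2%) and higher at 0 (background 37.6%). The comparisons with no doxycycline share those 2 libraries.

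Regions without IgG peaks moved the other way on the same scale. The median log2 ratio of induced over uninduced pileup per depth was −0.56 at the 204 members (quartiles −0.87 and −0.34), a ratio of 0.678. It was 0.52 at the 619 regions with all 6 HA peaks and no IgG peak (quartiles 0.24 and 0.77), a ratio of 1.43. Of those 619, 323 were higher without overlap and 8 lower. In raw pileups the medians were 0.10 at members, a ratio of 1.07, and 1.18 at the regions without IgG peaks, a ratio of 2.27. Division by depth shifts every region by the same amount, so the gap between the sets is the same on both scales by construction.

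**Figure D4:**
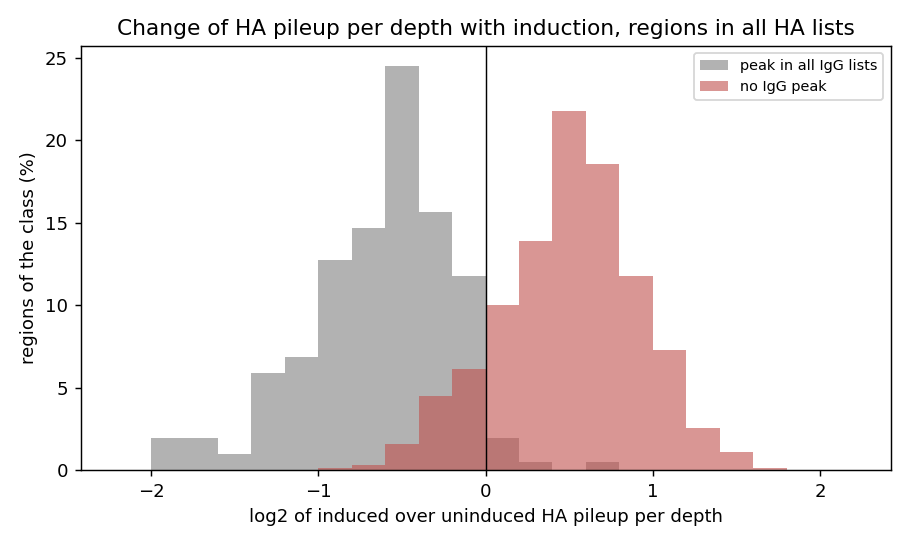
Distribution over regions of the log2 ratio of induced (4 libraries) over uninduced (2 libraries) HA pileup per depth, for the 204 members (grey) and the 619 regions with all 6 HA peaks and no IgG peak (red). The medians lie at −0.56 and 0.52.

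Few members had all induced HA pileups above all IgG pileups. Pair by pair, HA exceeded IgG at 29.8% to 58.3% of members. At 10 of the 204 members with all 12 peaks, every induced HA pileup exceeded every IgG pileup (4.9%, the background being these same 204), and at 2 every one was lower (0.98%). At the other 192 the values overlapped. One of the 10 was chr9:35216417-35216998, with induced HA pileups of 314, 304, 310 and 302 against IgG pileups of 205, 292, 224, 299, 217 and 225. The IgG values of 205, 224, 217 and 225 lay within 10% of 2 times the fragment length of their lists, a limit under every one of these HA values, so its place among the 10 does not rank the antibodies. The member at chr3:95951844-95952334 had HA pileups of 61 and 57 in +Myf6+F/R/C, 47 and 40 in +Myf6 and 32 and 13 without doxycycline. Its IgG pileups were 11 and 9, 15 and 15, and 15 and 14, and its H3K27me3 pileup was 40. All 4 induced HA values lay above the other 8 HA and IgG values, and this member had the highest mean log2 ratio of HA over IgG per depth in induced cells, 0.37.

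Neighbours on chromosome 5 were of the same kind. At chr5:36818209-36818997, HA pileups were 48 and 42, 37 and 32, and 42 and 22, against IgG pileups of 14 and 5, 9 and 23, and 28 and 23. At chr5:36787767-36788127, they were 75 and 56, 67 and 47, and 52 and 31, against IgG pileups of 26 and 19, 27 and 39, and 38 and 38. At both, replicate 1 without doxycycline reached into the induced HA range, so the induced values stand apart from IgG and not from uninduced HA. At chr9:59331794-59332452, HA pileups were 46 and 25, 30 and 25, and 21 and 18, against IgG pileups of 16 and 8, 11 and 8, and 14 and 14. Here induced HA lay above uninduced HA as well, as it did at 6 of the 10. Also among the 5 highest by mean log2 ratio of HA over IgG per depth was chr13:51234158-51234465. Its HA pileups were 69 and 27, 43 and 44, and 39 and 30. Its IgG pileups were 28 and 12, 16 and 13, and 22 and 25. The lowest induced value, 27, lay 1 fragment under the highest IgG value, 28. The ratios at chr5:36818209-36818997, chr9:59331794-59332452, chr13:51234158-51234465 and chr5:36787767-36788127 were 0.17, −0.11, −0.26 and −0.51. A negative ratio means that HA lay under IgG per depth.

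At the opposite end IgG exceeded HA. At chr2:41786109-41786391, HA pileups were 15 and 17 in +Myf6+F/R/C, 13 and 13 in +Myf6 and 15 and 14 without doxycycline. Its IgG pileups were 26 and 21, 24 and 21, and 26 and 21, so that the antibodies did not overlap. At chr7:91751236-91751525, which had the lowest mean log2 ratio per depth (−2.45), HA pileups were 12 and 8, 8 and 12, and 7 and 8, against IgG pileups of 21 and 15, 12 and 21, and 13 and 10. The other 3 of the lowest 5 were chr3:94241773-94242088, chr18:3638754-3639248 and chr5:35791506-35791814, with ratios of −2.44, −2.43 and −2.34.

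A missing HA peak went with a weak IgG peak. The 48 members that lacked at least 1 HA peak had a median IgG pileup per depth of 0.803, against 1.68 for the 204 with all 6. Regions with no IgG peak have an HA peak by construction. No HA peak was present at 2.13% of all regions and at 53.9% of those in 1 to 5 IgG lists. The only member with no HA peak (0.397%) was chr16:15703365-15703601. Its IgG pileups were 14 and 16 in +Myf6+F/R/C, 14 and 13 in +Myf6 and 13 and 10 without doxycycline, and it had no H3K27me3 peak. The narrowest member, chr14:14463578-14463751 (174 bp), had an HA peak only in replicate 1 of +Myf6+F/R/C, with 16 fragments, and IgG pileups of 10 and 9, 9 and 8, and 8 and 7. Of the 63 members with the best mean IgG rank, all 63 had 6 HA peaks and an H3K27me3 peak. Of the 63 with the worst, 31 had 6 HA peaks and 44 an H3K27me3 peak.

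The H3K27me3 list also held most members. An H3K27me3 peak overlapped 218 of 252 members (86.5%, 95% Clopper-Pearson interval 81.7% to 90.5%), against 26.2% of all merged regions. The interval covers counting error only, and with 1 library there is no replicate check. The median H3K27me3 summit pileup at members was 21 fragments, close to the IgG medians, and its depth was 54.3 fragments per 10 kb. Per depth it was a median of 0.233 times the median of the 6 IgG libraries, and it exceeded that median at 3 members. IgG peaks chose the members, which favours high IgG values, and the IgG libraries were shallower and came from all 3 treatments. Depth and antibody cannot be told apart in this ratio either. Within the H3K27me3 list, members had a median fold of 7.91, against 5.27 elsewhere, and a median rank of 11755 of 32130. Only 11 of its 100 best peaks lay at members. The 34 members without an H3K27me3 peak were weaker in IgG, with a median pileup per depth of 0.781 against 1.64, and 16 of them (47.1%) had all 6 HA peaks, against 188 of 218 (86.2%).

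HA shares climbed from 1 to 6 IgG lists, while the H3K27me3 share was highest at 6 and uneven below. Among regions with a peak in 0, 1, 2, 3, 4, 5 and 6 IgG lists (67461, 2411, 175, 78, 50, 65 and 252 regions), an H3K27me3 peak was present at 25.7%, 32.2%, 56.6%, 46.2%, 44%, 38.5% and 86.5%. HA peaks in all 4 induced lists were present at 14.6%, 11.9%, 24%, 29.5%, 34%, 49.2% and 86.5%. HA peaks in both uninduced lists were present at 1.05%, 1.20%, 9.14%, 23.1%, 32%, 60% and 88.9%. The induced share asks for 4 lists and the uninduced share for 2, so the first is held to the stricter requirement and the 2 shares cannot be ranked against each other. Of all regions in 1 to 5 IgG lists, 53.9% had no HA peak at all.

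**Figure D5:**
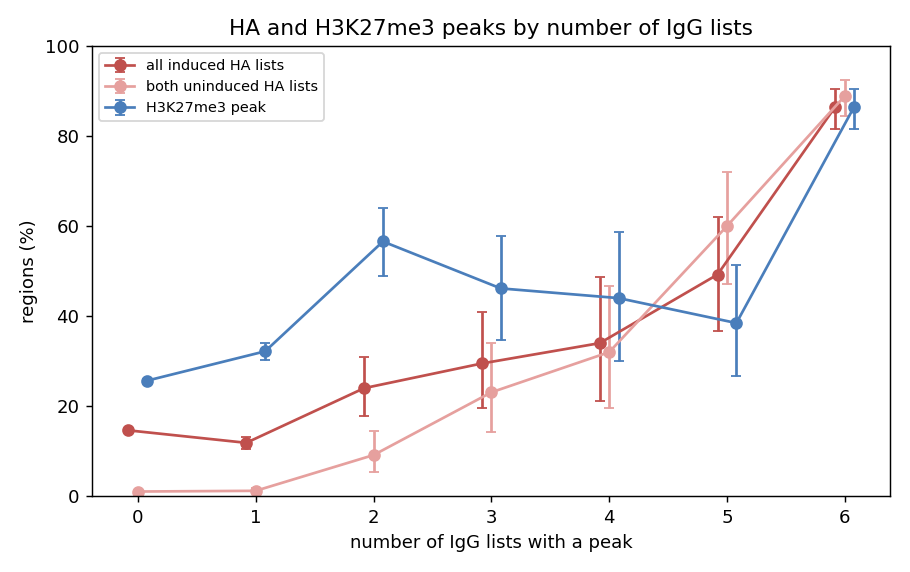
Share of regions (%) with peaks in all 4 induced HA lists, in both uninduced HA lists and in the H3K27me3 list, by the number of IgG lists (0 to 6) with a peak; bars are 95% Clopper-Pearson intervals. At 6 lists, which are the members, the 3 shares are 86.5%, 88.9% and 86.5%.

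Regions just outside the choice lacked some IgG lists more often than others. The 65 regions with exactly 5 IgG peaks most often lacked the list of replicate 1 of +Myf6 (23 regions), replicate 2 of +Myf6+F/R/C (18) or replicate 1 without doxycycline (15). Replicate 1 of +Myf6 had the shortest IgG list, with 410 autosomal peaks and a depth of 13.6. Replicate 2 of +Myf6+F/R/C had the longest, with 1648 peaks, and the lowest depth, 8.25. These 65 regions had a median IgG pileup per depth of 0.661 (0.367 to 10.1), and the 65 members with the lowest such values had a median of 0.734.

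Summits at members lay closer together than at regions without IgG peaks. The 6 HA summits of a member spanned a median of 46.5 bp over 204 members (quartiles 21.75 and 85.5 bp), and 52.9% spanned at most 50 bp. At the 619 regions with all 6 HA peaks and no IgG peak they spanned 230 bp, and 4.52% spanned at most 50 bp. Members are narrower, so regions under 500 bp were also set side by side. There the span was 34 bp at 133 members and 184 bp at 21 regions without IgG peaks, but the members were still the narrower, by 153 bp in median width, so width was not matched. The median HA summit lay a median of 8 bp from the median IgG summit over 251 members, and within 50 bp at 91.6%. The H3K27me3 summit lay 12 bp from it over 218 members, and within 50 bp at 83.5%.

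The strength of members was correlated from library to library. Across members, the log2 pileup per depth of any pair of IgG libraries had a Pearson r of 0.892 to 0.961 (252 members). For an HA and an IgG library r was 0.816 to 0.949 (226 to 245 members), and for H3K27me3 and an IgG library 0.804 to 0.885 (218 members). For HA and IgG of the same nuclei, the Spearman correlation, which measures order, was 0.817 to 0.905, against a Pearson r of 0.897 to 0.949. Points are regions that share their libraries and depth, so these values are a description. The SD between members was 1.24 on the log2 scale, and the SD of a member over the 6 IgG libraries had a median of 0.51.

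The members differed in their local background. The expected pileup that the caller used around a member was a median of 3.01 times the lowest of the list (quartiles 1.92 and 5.82, range 1.08 to 399). At 51 members it was at least 10 times the lowest. These had a median width of 526 bp, a median IgG pileup per depth of 7.26 and a median fold of 4.84, and 48 (94.1%) had all 6 HA peaks. The other 201 had a median width of 340 bp, a median pileup per depth of 1.27 and a median fold of 13.3, and 156 (77.6%) had all 6 HA peaks. H3K27me3 peaks lay at 50 (98.0%) of the first and 168 (83.6%) of the second. The expected pileup counts fragments in the 10 kb around a summit, the member's own included. It was 1.48 times the lowest at the narrowest member, which had a pileup per depth of 0.534. At chr6:103625906-103626345 these values were 17.4 and 13.6. The classes thus partly split members by IgG strength, which chose them, and their differences do not show unlike kinds. The class with the higher median pileup thus had the lower median fold, but single members departed from this: chr6:103625906-103626345, in the first class, had a pileup per depth of 13.6 and a fold of 47.6. The widest member, chr1:24650704-24655211 (4508 bp), had IgG pileups of 141 and 170 in +Myf6+F/R/C, 119 and 153 in +Myf6 and 105 and 96 without doxycycline. Its local background was 234 times the lowest, and its median IgG fold was 2.99.

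Chromosome 9 held more members than any other autosome. It had 43 of the 252 (17.1%), where it had 5.46% of all merged regions, and chromosome 15 had 3. A run of 19 members filled 38.2 kb at chr9:3000026-3038268, which begins at the first peak of that chromosome in any list. Their median IgG pileups per depth were 6.97 to 13.4, their folds 2.16 to 4.27 and their local backgrounds 178 to 399 times the lowest. HA peaks were present in all 6 lists at 17 of the 19 and an H3K27me3 peak at 18. A group of 3 lay at the other end, at chr9:124254634-124259253, where the last peak of the chromosome lies, and another 3 lay at chr2:98492526-98497739. In all, 45 members lay within 50 kb of another in 13 groups, and 207 stood alone.

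Ends of chromosomes were well represented. Within 1 Mb of the first or last peak of a chromosome lay 50 members (19.8%), 107 regions in 1 to 5 IgG lists (3.85%) and 1122 regions in none (1.66%). Neighbours were not counted once here. The 50 include 3 groups of chromosome 9: the run of 19, the 3 at its other end and 2 at chr9:123701964-123721429. Mouse autosomes carry their centromere next to one end, and satellite repeats fill it. The files do not say which members, if any, hold such repeats.

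Members formed a small share of the regions seen in both HA lists of an induced treatment. In +Myf6+F/R/C, 18409 regions had a peak in both lists, and 228 of them (1.24%) were members. They made up 6.44% of the 3543 that also had a peak in at least 1 control list (IgG, or HA without doxycycline). In +Myf6, 15676 regions had a peak in both lists, and 229 (1.46%) were members, or 7.07% of the 3238 with a control peak.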

How the data were processed

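CUT&RUN peaks of 13 libraries were used as deposited, with a narrowPeak list for each library and no pooling of replicates. Per the submitters' processing notes, MACS2, deepTools and DiffBind were used with build GRCm39. No version or aligner is given in the sources used here. As deposited by the authors, each peak has a fold over local background (a ratio), a −log10 p-value, a −log10 q-value and a summit. Those scores are the authors' and describe or rank peaks within their own list.

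The 12 HA and IgG lists were merged on chromosomes 1 to 19 (at least 1 bp shared) with Python 3.11.15, numpy 2.4.6, pandas 2.3.3 and scipy 1.17.1. Summit pileup k and expected pileup λ were recovered from the fold, (k + 1)/(λ + 1), together with the Poisson tail behind each p-value, within 0.002 of the deposited −log10 p, and were tested on simulated data. Depth is the lowest λ times 10 kb over the narrowest peak width, taken as the fragment length. Treatments were compared over libraries by two-sided exact permutation tests. Regions named are the 10 with the best mean IgG rank, those with no HA peak, the 5 highest and 5 lowest in HA over IgG per depth, and the widest and narrowest; other regions where HA and IgG did not overlap were named after their values were seen, as was the region with the tallest pileups among the 10. The members, lists and tests were chosen with earlier results of these data known. Overlap with genes, transcription starts and sequence features was planned and not run, since the gene tables at hand are of GRCm38. Drosophila spike-in reads were not used.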

Additional observations from a re-analysis of the deposited data

Results flagged for a closer look

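Chromosomes 1 to 19 were the subject above, and peaks elsewhere were counted by the same merge. Unplaced scaffolds had 127 merged regions on 9 sequences, of which 33 had a peak in all 6 IgG lists, and 28 of these had all 6 HA peaks and 28 an H3K27me3 peak. Chromosomes X and Y together had 13 regions with a peak in all 6 IgG lists, 12 of 1344 on X and 1 of 28 on Y. The mitochondrial sequence had 3 of 10. These were picked out because they lie outside the regions compared above and carry a signal in the IgG controls. On the autosomes the share was 0.357%.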

How the results depend on the processing

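The number of members ran from 220 to 275 over 12 alternatives (a stricter q, IgG lists of equal length, a longer overlap, X and Y added, each IgG library left out, neighbours counted once). Leaving out 1 IgG library gave 252 to 275 members, and their H3K27me3 share then ran from 80.7% to 86.5%, the low value being without replicate 1 of +Myf6. The share of members with an HA peak changed sign when single libraries were left out. +Myf6 minus no doxycycline ran from −1.79 to 4.56 points, and +Myf6+F/R/C minus no doxycycline from −1.79 to 4.56 points; both were negative without replicate 1 of HA without doxycycline, the first also without replicate 2 of HA +Myf6 (−1.59), the second also without replicate 1 of IgG without doxycycline (−0.187). The log2 differences in pileup per depth were negative under all 20 alternatives each. They ran from −0.79 to −0.16 (+Myf6 against no doxycycline), −1.20 to −0.22 (+Myf6+F/R/C against no doxycycline) and −0.58 to −0.05 (+Myf6+F/R/C against +Myf6). The end nearest 0 came from the deposited fold in place of the pileup; scaling by the lowest expected pileup, chosen after seeing the data, gave the lowest values of the first 2. With 1 library left in a group, values carry no spread of their own.

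With the replicate number as a block, the differences in share were 1.39, 1.39 and 0 points and those in pileup −0.46, −0.81 and −0.34, as without it. Differences between replicates at the 204 members correlated between treatments at r = 0.27 to 0.37, but 2 numbers do not establish pairing. The alternative window for transcription starts was not run, for lack of an annotation of the build.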
